A study of Mus musculus with 12 samples.

Results

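The genes studied here were the 10 members of the LINC complex and the nuclear lamina that were listed by symbol, namely the SUN-domain genes Sun1, Sun2, Sun3, Sun5 and Spag4, the KASH-domain genes Syne1 and Syne2, and the lamin genes Lmna, Lmnb1 and Lmnb2. All 10 were found among the 28643 gene symbols used, and they were listed by name, without a rule on measured values but with earlier results of these data known. Round spermatids, the haploid germ cells that follow meiosis, were sorted from testes of 8-week-old mice while cycloheximide held ribosomes on mRNA. The control group was Igf2bp3+/-, with 1 intact copy of the gene for the RNA-binding protein IGF2BP3, and the other group was Igf2bp3-/-, so every control also carried the Cas9-made frameshift allele on 1 chromosome. RNA-seq read RNA of the cell extract that was selected by its poly(A) tail. RNC-seq read RNA, selected in the same way, that sedimented with 4 or more ribosomes. Each of the 4 groups held 3 libraries, 12 in all. The Igf2bp3-/- males that entered the study's experiments were chosen for impaired fertility according to its methods.

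The LINC complex (linker of nucleoskeleton and cytoskeleton) bridges the nuclear envelope. SUN-domain proteins sit in the inner nuclear membrane, reach the lamina with their inner ends, and bind in the space between the membranes to KASH-domain proteins of the outer membrane, which hold actin, microtubule motors or other filaments. In the germline SUN1 and SUN2 anchor telomeres to the envelope in meiosis, whereas SUN3, SUN4 (the product of Spag4) and SUN5 belong to spermatids, where SUN3 and SUN4 take part in shaping the head along the microtubule manchette and SUN5 anchors the tail to the head. Lamins form the meshwork under the inner membrane.

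Values are FPKM, the density of sequenced fragments normalised for transcript length and library size, so levels of different genes can be set side by side, but only roughly. The value of a gene pools its transcripts, and how evenly long transcripts were covered cannot be seen from it. Since the files hold no read counts, library depth in reads is unknown and no counting interval could be given. A relative depth read from the smallest values was 1 in Igf2bp3-/- RNA-seq replicate 1 and lay between 0.366 and 0.555 in the other libraries. A single transcript, CT010467.1, held 5.68% to 13.3% of the summed FPKM in RNA-seq and 8.14% to 19.4% in RNC-seq, and every FPKM depends on that share. The round spermatid markers (Acrv1, Spaca1, Actl7b, Crem, Acr and Izumo1) were present throughout, with a summed FPKM of 1230 to 1280 in Igf2bp3+/- RNA-seq and 1530 to 1680 in Igf2bp3-/- RNA-seq. The sums of 6 elongating spermatid markers (8580 or more in every library) were higher still. The study measured Tnp1, Tnp2, Prm1 and Prm2 mRNA in its sorted round spermatids, so these sums do not measure the share of elongating cells. Igf2bp3 itself read 33.4 to 38.6 FPKM in Igf2bp3+/- RNA-seq and 31.4 to 32.5 in Igf2bp3-/- RNA-seq. In RNC-seq it read 31.4 to 43 FPKM in Igf2bp3+/- and 40.6 to 43.1 in Igf2bp3-/-. Since a frameshift need not remove a transcript, these levels cannot check the labels.

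In the GENCODE M21 annotation of GRCm38 all 10 members were protein-coding. Spag4 (chr2:156065175-156070617, plus strand) and Sun5 (chr2:153856188-153871084, minus strand) share a chromosome. Sun3 lies at chr11:9016054-9048991, Sun1 at chr5:139200637-139249840, Sun2 at chr15:79724070-79742536, Syne1 at chr10:5020917-5551482, Syne2 at chr12:75818134-76110926, Lmna at chr3:88480147-88509956 and Lmnb2 at chr10:80901203-80918245. The longest transcripts of Syne1 and Syne2 span 27908 and 21704 bases, against 1157 bases for Sun5. No member had a near-identical copy elsewhere. Exons of Sun3, Sun1 and Sun2 overlapped a gene on the other strand over 9.47%, 3.98% and 2.71% of their exonic bases, and reads there cannot be assigned because the use of strand in counting is not stated. Lmnb2 and Lmna each have an annotated coding transcript with an internal start, as known for the shorter germ-cell lamins B3 and C2, and the value per gene does not separate it from the full-length form.

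RefSeq upstream windows of 250 bases (build GRCm38.p6) were found for 9 of the 10 members, 15 windows in all. They were searched on both strands for the cAMP response element, the motif that CREM and CREB factors bind, as TGACGTCA and as its half-site TGACG, which lies inside the full element. Windows are shown for 4 of the 5 members whose RNA-seq libraries did not overlap between genotypes, as described further on, with both windows of Lmnb2 because its internal start has a promoter of its own. Each runs 5′ to 3′ in the direction of the gene and ends at the base before the RefSeq start, and capitals mark the motif. The windows are Spag4 at chr2:156064963-156065212 (plus strand), Sun5 at chr2:153871085-153871334 (minus), Lmnb2 outer at chr10:80918246-80918495 (minus), Lmnb2 inner at chr10:80906413-80906662 (minus) and Syne2 at chr12:75818189-75818317 (plus), where the upstream bases up to the end of a GENCODE untranslated exon were left out.
Spag4: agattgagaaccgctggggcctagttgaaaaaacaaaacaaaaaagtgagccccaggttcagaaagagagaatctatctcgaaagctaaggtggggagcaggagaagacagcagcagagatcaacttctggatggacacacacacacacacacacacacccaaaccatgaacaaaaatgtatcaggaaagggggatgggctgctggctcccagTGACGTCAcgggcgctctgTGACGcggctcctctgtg
Sun5: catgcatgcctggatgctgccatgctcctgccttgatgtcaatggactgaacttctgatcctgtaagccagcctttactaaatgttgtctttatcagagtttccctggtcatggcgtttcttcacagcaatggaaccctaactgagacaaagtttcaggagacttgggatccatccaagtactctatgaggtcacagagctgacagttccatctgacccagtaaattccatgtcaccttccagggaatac
Lmnb2 outer: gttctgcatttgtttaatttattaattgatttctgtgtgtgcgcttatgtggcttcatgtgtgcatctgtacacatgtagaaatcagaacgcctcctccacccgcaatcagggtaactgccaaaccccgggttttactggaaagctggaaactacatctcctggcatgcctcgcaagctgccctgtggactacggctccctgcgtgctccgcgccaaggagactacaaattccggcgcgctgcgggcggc
Lmnb2 inner: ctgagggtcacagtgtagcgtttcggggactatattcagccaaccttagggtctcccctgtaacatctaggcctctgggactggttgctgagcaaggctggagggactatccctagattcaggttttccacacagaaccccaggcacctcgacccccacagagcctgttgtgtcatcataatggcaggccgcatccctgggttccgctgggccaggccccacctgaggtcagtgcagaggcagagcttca
Syne2: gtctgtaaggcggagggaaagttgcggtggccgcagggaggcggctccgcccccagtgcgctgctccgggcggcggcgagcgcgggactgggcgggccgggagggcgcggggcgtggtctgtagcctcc
The full element was found in the Spag4 window at chr2:156065176-156065183, beginning 37 bases before the RefSeq start and just inside the first exon of a noncoding Spag4 transcript of GENCODE. It was thus present in 1 of the 15 member windows and in 1.55% of 32851 windows of the same length. The half-site was found in 2 of the 15, those of Spag4 and Sun1, and in 17.8% of all windows. A match is a run of letters and not a measured binding site.

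The 10 genes covered a wide range of expression in these cells. In Igf2bp3+/- RNA-seq the order of mean FPKM was Spag4 (211), Lmnb2 (147), Sun5 (86.3), Sun1 (48.2), Sun3 (47.4), Lmna (8.80), Syne2 (5.87), Sun2 (4.29), Lmnb1 (2.43) and Syne1 (0.269). Spag4 stood above 98.4% of the 20352 genes tested, Lmnb2 above 97.1% and Sun5 above 94.5%, whereas Syne1 stood above 17.5%. The libraries of neighbours in this order did not overlap, except those of Sun1 and Sun3. In Igf2bp3-/- RNA-seq Sun3 and Sun1 overlapped again, as did Syne2 and Sun2. In RNC-seq Spag4, Lmnb2 and Sun5 led in both genotypes, with Spag4 and Lmnb2 overlapping in both and Lmnb2 and Sun5 only in Igf2bp3-/-. Syne2 fell to the place before last, after Lmnb1, and overlapped Lmnb1 in Igf2bp3-/- but not in Igf2bp3+/-. Spag4, Lmnb2 and Sun5 were thus the most abundant members in all 4 groups, and Sun1 and Sun3 followed them. Sun1 and Sun2, whose proteins have the meiotic role given above, were far apart. The mean FPKM of Sun1 was 11.2 to 17.3 times that of Sun2 in the 4 groups.

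**Figure D1:**
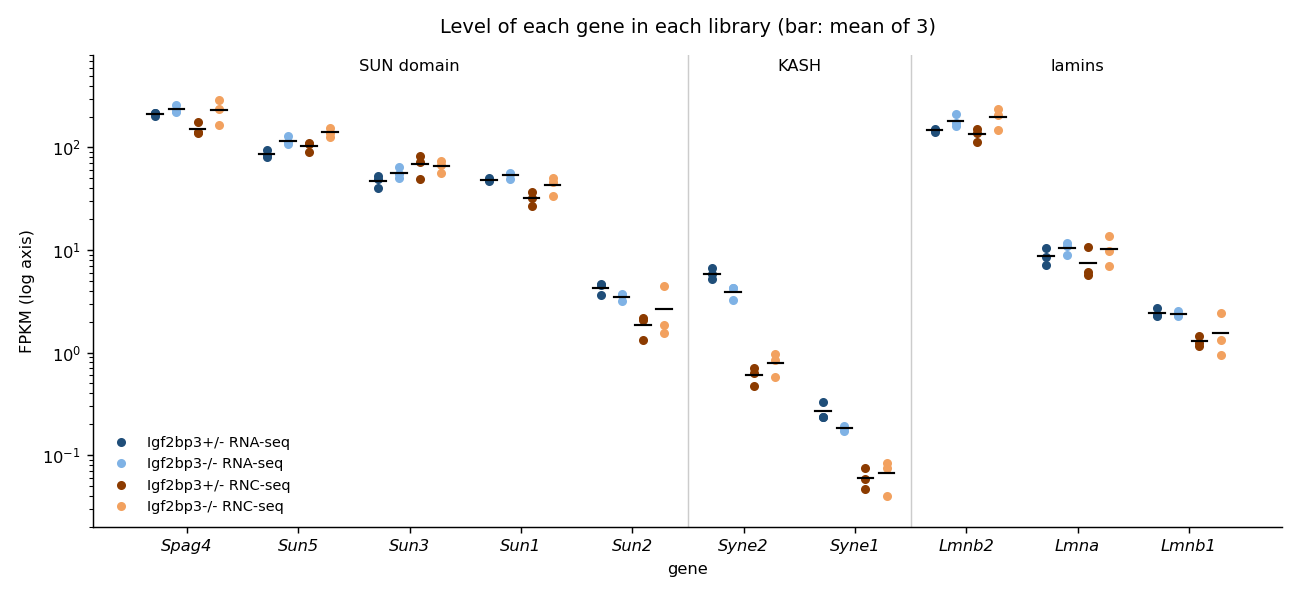
FPKM of each of the 10 genes (log axis) in the 12 libraries, with 1 point per library, colours for the 4 groups and a black bar for the mean of 3. Spag4, Lmnb2 and Sun5 sit highest, Syne2 drops from a mean of 5.87 to 0.602 FPKM between RNA-seq and RNC-seq of Igf2bp3+/-, and Syne1 stays at 0.333 FPKM or less.

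To ask whether loss of IGF2BP3 changed the transcript levels, Igf2bp3-/- was compared with Igf2bp3+/- within RNA-seq. Sun5 (1.35-fold), Lmnb2 (1.23-fold) and Spag4 had higher values in every Igf2bp3-/- library than in any control, and Syne2 (0.674-fold) and Syne1 lower ones, but 0 of the 10 members passed the limit of an adjusted p of 0.05 (limma on log2(FPKM + 0.1), Benjamini-Hochberg over 20352 genes). Of all genes 0.256% passed. An unadjusted p under 0.05 was reached by 2 members with higher values (10.4% of all genes) and by 1 with lower values (5.32%). Groups that did not overlap were seen for 3 higher and 2 lower members, against 14.1% and 8.68% of all genes. The median log2 difference was 0.16 for the members and 0.05 for all genes, and the members' median came to 0.02 with quantile normalisation and 0.03 after FPKM was rescaled without CT010467.1.

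Sun5, the anchor of the sperm tail, read 94.5, 84.4 and 80.2 FPKM in Igf2bp3+/- RNA-seq and 108, 112 and 130 in Igf2bp3-/-. The lowest knockout library was thus above the highest control. The log2 difference was 0.43 ± 0.10 (moderated SE of limma, n = 3 per group, 95% interval 0.20 to 0.67, adjusted p = 0.163 by limma). In bulk RNA a higher share of cells with the transcript and more transcript per cell cannot be told apart, nor can fewer cells and less RNA per cell for the lower genes. The round spermatid marker sum stood apart in the same direction, 6 of its 6 genes had values above 0 on the log2 scale, and 0 passed. The summed FPKM of 6 Leydig cell markers was 15.2 to 22.5 in the controls and 48.4 to 54.7 in the knockouts, with 4 of the 6 past the limit. Most of that sum was Insl3, with means of 14.9 and 39.3 FPKM. Macrophage markers summed to 4.78 to 6.0 and 7.89 to 9.09, while Sertoli markers stayed at 1.21 or less in every library. The part of these cells in the member values was not tested.

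Spag4, which encodes SUN4 of the manchette, read 215, 215 and 202 FPKM in the controls and 220, 226 and 261 in the knockouts. Its groups lay side by side without overlap, with a log2 difference of 0.16 ± 0.09 (adjusted p = 0.43, limma) that came to -0.02 with quantile normalisation. Sun3, its spermatid partner, read 52.1, 49.6 and 40.4 against 55.5, 50.6 and 64.7, and these groups overlapped (log2 difference 0.27 ± 0.13, adjusted p = 0.357, limma). The SUN genes with a known role in meiosis split in sign. Sun1 read 46.9, 49.9 and 47.8 against 49.2, 56.3 and 55.6 (log2 difference 0.15), and Sun2 read 3.65, 4.59 and 4.63 against 3.69, 3.63 and 3.19 (-0.28), with adjusted p of 0.432 and 0.382 by limma and overlap in both.

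Both KASH members had lower values in every knockout library than in any control. The other KASH genes tested overlapped between genotypes. Ccdc155 had means of 48.55 FPKM in the controls and 54.29 in the knockouts (log2 difference 0.16), and Syne3 had a log2 difference of -0.21. Syne2, which encodes the giant actin-binding nesprin-2, read 5.77, 5.19 and 6.64 FPKM in the controls and 4.22, 4.30 and 3.28 in the knockouts. All 3 knockout libraries were below all 3 controls, and the log2 difference was -0.57 ± 0.15 (95% interval -0.92 to -0.22, adjusted p = 0.185, limma). Syne1, the gene of nesprin-1, read 0.237, 0.236 and 0.333 against 0.185, 0.171 and 0.192, also apart, at a level where the added 0.1 shrinks the difference (-0.37 ± 0.28, adjusted p = 0.538, limma).

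Of the lamins, only Lmnb2 had groups that did not overlap in RNA-seq. It read 151, 140 and 149 FPKM in the controls and 162, 172 and 213 in the knockouts, without overlap, and the log2 difference was 0.30 ± 0.11 (95% interval 0.05 to 0.56, adjusted p = 0.26, limma). Lmna, the gene of the A-type lamins, overlapped, with 8.63, 7.22 and 10.6 against 9.02, 10.9 and 11.8 FPKM, and the 95% interval of its log2 difference of 0.27, from -0.10 to 0.64, held the value of Lmnb2. Lmnb1, the other B-type lamin, had nearly equal values of 2.70, 2.30 and 2.29 against 2.34, 2.52 and 2.27 FPKM, and its interval ran from -0.35 to 0.30.

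The same comparison within RNC-seq asks whether the amount of each mRNA on polysomes differed. Here 8 of the 9 tested members had a log2 difference above 0, led by Spag4 (0.58) and Lmnb2 (0.54), and 0 of 9 passed the adjusted limit (limma), as 0.115% of 19051 genes did. Syne1 was below the mean FPKM of 0.1 that the test required. An unadjusted p under 0.05 was reached by 3 members with higher values (5.36% of all genes) and by 0 with lower ones (1.12%). Only Sun5 had groups that did not overlap, 1 higher member against 9.44% of all genes, with 0 lower members against 1.85%. The members' median was 0.43 and that of all genes 0.13. Median centring, quantile normalisation and rescaling without CT010467.1 lowered the all-gene median by 0.12, 0.14 and 0.11, and the members' median under them was 0.31, 0.28 and 0.31.

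Polysomal Sun5 read 112, 90.6 and 107 FPKM in Igf2bp3+/- and 155, 140 and 126 in Igf2bp3-/-, so that all knockout libraries were above all controls (log2 difference 0.44 ± 0.19, adjusted p = 0.756, limma). Spag4 read 142, 175 and 138 against 290, 238 and 166, and knockout replicate 3 fell within the control range (0.58 ± 0.23, adjusted p = 0.756, limma). Lmnb2 read 113, 152 and 139 against 239, 207 and 147, with the same library inside the control range (0.54 ± 0.23, adjusted p = 0.756, limma). That library, Igf2bp3-/- RNC-seq replicate 3, was the lowest of its group for 7 of the 10 members and the highest for 0, while replicate 1 was the highest for 6. Without replicate 3 the members' median was 0.54, and without replicate 1 it was 0.37. Leaving out any single library of either genotype gave medians from 0.30 to 0.54.

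The other members overlapped between genotypes on polysomes. Sun1 read 26.8, 32.4 and 37.0 against 45.7, 50.8 and 33.8 FPKM. Sun2 read 1.33, 2.07 and 2.17 against 1.55, 4.49 and 1.88, where a single knockout library carried the higher mean, and without it the log2 difference of 0.36 became -0.09. Sun3 had the only value below 0 (-0.03), with 83.0, 49.1 and 72.5 against 73.0, 56.5 and 67.7 FPKM. Syne2 read 0.472, 0.703 and 0.631 against 0.851, 0.970 and 0.573, a difference of 0.34 ± 0.33 (adjusted p = 0.875, limma). Lmna read 6.03, 10.8 and 5.74 against 13.6, 9.87 and 7.03, Lmnb1 1.16, 1.24 and 1.46 against 2.41, 1.32 and 0.940, and Syne1 stayed between 0.0399 and 0.0833 in all 6 libraries. The Leydig marker sum was 6.71 to 14.3 in control RNC-seq and 51.4 to 102 in knockout RNC-seq. Most of that sum was Insl3, with means of 7.83 and 64.1 FPKM. All 6 markers had a log2 difference above 0, and 1 of the 6, Insl3, passed the limit. The part of Leydig cells in the member values was not tested here either.

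**Figure D2:**
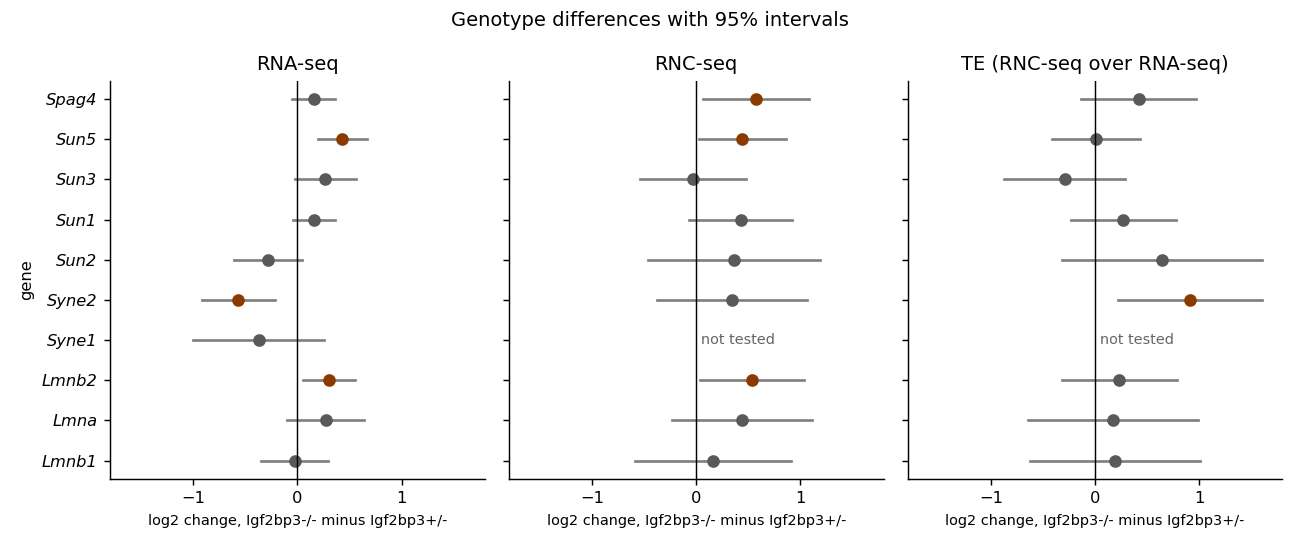
Log2 difference between Igf2bp3-/- and Igf2bp3+/- (horizontal axis, 95% intervals from limma) for each gene in RNA-seq, RNC-seq and translational efficiency; brown points have an unadjusted p under 0.05 and no point passed the adjusted limit. RNC-seq intervals are wider than those of RNA-seq, and Syne2 lies below 0 in RNA-seq (-0.57) and above 0 in TE (0.91).

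Translational efficiency (TE), the RNC-seq FPKM over the RNA-seq FPKM, joins both comparisons and shares their libraries. The difference in TE between genotypes, tested as the interaction of genotype and assay over 12 libraries, passed the adjusted limit for 0 of 9 members (limma) and for 0.00543% of 18414 genes. An unadjusted p under 0.05 was reached by 1 member with a higher TE, Syne2, against 5.54% of all genes, and by 0 with a lower TE against 1.58%. For Syne2 the ratio of mean FPKM was 0.103 in Igf2bp3+/- and 0.203 in Igf2bp3-/-. Its log2 difference was 0.91 ± 0.32 (95% interval 0.22 to 1.60, adjusted p = 0.686, limma), built from the lower RNA-seq and the higher RNC-seq values given above. Sun5 had a TE of 1.19 and 1.2, so that its higher level was present to a like extent in both assays (log2 difference 0.01, 95% interval -0.41 to 0.43). Spag4 had 0.721 and 0.981 (0.42 ± 0.26, adjusted p = 0.73, limma), and Sun3 had 1.44 and 1.16 (-0.29 ± 0.27, adjusted p = 0.805, limma). For the remaining members the log2 difference was 0.64 for Sun2, 0.27 for Sun1, 0.23 for Lmnb2, 0.19 for Lmnb1 and 0.17 for Lmna. The members' median of 0.23 (0.06 for all genes) came to 0.00108 without Igf2bp3-/- replicate 1 and to 0.49 without Igf2bp3-/- replicate 3.

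To describe polysome loading of each mRNA relative to the other mRNAs, RNC-seq was compared with RNA-seq within each genotype. FPKM is scaled within each library, so a log2 change of 0 marks no fixed point. The change does not give the part of an mRNA that was on polysomes. In Igf2bp3+/- 5 of the 9 tested members passed the adjusted limit as lower in RNC-seq and 0 as higher. Of 17942 genes 25.1% and 18.6% did so. Syne2 was the least loaded, from a mean of 5.87 FPKM in RNA-seq to 0.602 on polysomes, a log2 change of -3.10 ± 0.21 (adjusted p = 4.57e-05, limma). Sun2 followed with -1.19 ± 0.23 (adjusted p = 0.00312, limma), then Lmnb1 with -0.87, Sun1 with -0.60 and Spag4 with -0.48 (adjusted p of 0.00644, 0.00903 and 0.0142 by limma). In each of these 5 the RNC-seq libraries lay below all RNA-seq libraries. The share of all genes with such a gap was not computed. The 5 had already passed the limit, so the gap adds no separate support. The libraries of Syne1 were apart in the same way, with a ratio of means of 0.224, and Syne1 was not tested. The spermatid genes Sun3 (0.50 ± 0.20, adjusted p = 0.0736, limma) and Sun5 (0.25 ± 0.13, adjusted p = 0.143, limma) had values above 0, and Lmna (-0.27) and Lmnb2 (-0.14) had intervals that spanned 0. The members' median was -0.48 and that of all genes -0.09.

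Several of these calls rested on single libraries or on the scaling. With both libraries of Igf2bp3+/- replicate 1 left out, 2 members stayed past the limit, and Sun1, Spag4 and Lmnb1 had adjusted p of 0.0693, 0.134 and 0.0677 (limma). Without replicate 2 Sun1 had 0.0503 while Sun3 and Lmna passed, and without replicate 3 Spag4 had 0.078. Median centring moved the median of all genes by 0.16. Under it 4 members passed as lower and 2, Sun3 and Sun5, as higher, while Spag4 no longer passed (adjusted p = 0.109, limma). Rescaling without CT010467.1 moved the all-gene median by -0.19, and 5 members passed as lower and 0 as higher. The log2 change of Syne2 ran from -3.31 to -2.1 over 11 alternatives and passed in all of them.

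In Igf2bp3-/- 1 of 9 members, Syne2, passed the adjusted limit as lower in RNC-seq and 0 passed as higher. Of 18456 genes 10.9% and 10.1% did so. The mean of Syne2 went from 3.93 to 0.798 FPKM, a log2 change of -2.18 ± 0.25 (adjusted p = 0.00185, limma). Without replicate 1 or replicate 3 of that genotype its log2 change was -2.18 and -2.11 with adjusted p of 0.0593 and 0.0677 (limma). The members that passed in the controls had smaller values here, namely -0.54 for Sun2, -0.68 for Lmnb1, -0.32 for Sun1 and -0.06 for Spag4, and none passed. The test of that difference between genotypes is the TE interaction above, which passed for no member. Sun3 (0.21) and Sun5 (0.26) again had values above 0. The members' median was -0.10 and that of all genes -0.04, and without replicate 3 the members' median was 0.22.

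**Figure D3:**
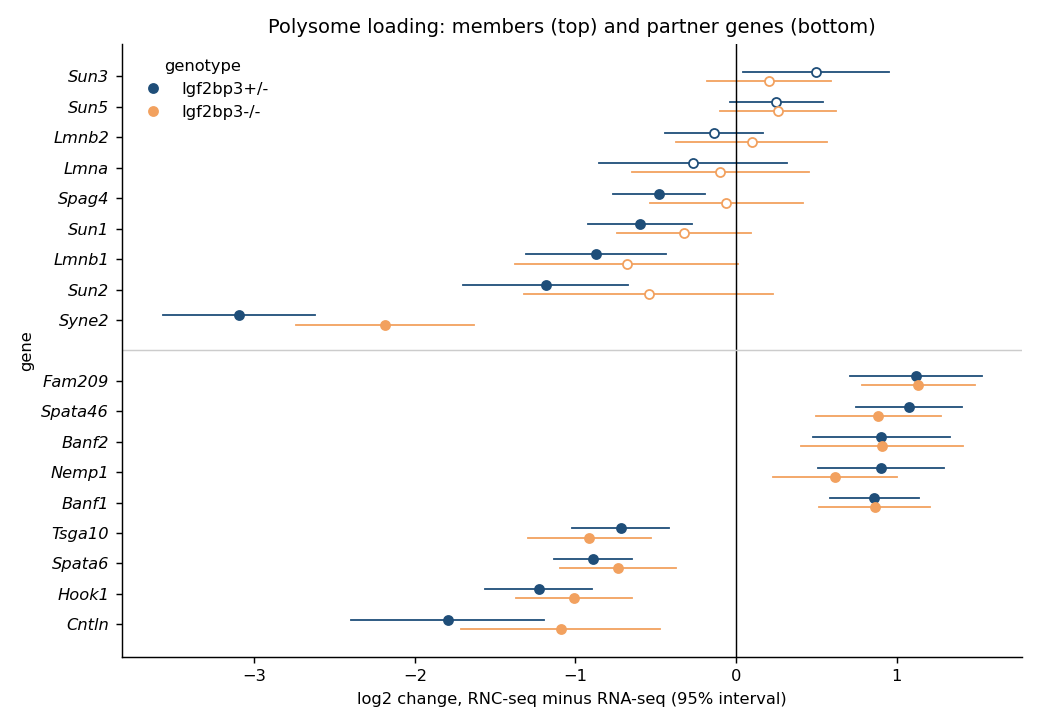
Log2 change from RNA-seq to RNC-seq (horizontal axis, 95% intervals from limma) in Igf2bp3+/- (blue) and Igf2bp3-/- (orange), for the 9 tested members above the line and the named partner genes below it; filled points have an adjusted p under 0.05. Syne2 is far to the left in both genotypes at -3.10 and -2.18, and Sun3 and Sun5 are the members with values above 0 in both.

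The make-up of each protein family was then described as a share of its summed FPKM, which does not depend on the scaling of a library. In RNA-seq Spag4 made up 53.1% ± 0.842 of the SUN-domain FPKM in Igf2bp3+/- and 50.5% ± 0.173 in Igf2bp3-/- (SD, n = 3). The share of Sun5 was 21.7% ± 1.05 and 25.0% ± 0.307, and that of Sun2 1.09% and 0.758%. These 3 shares did not overlap between genotypes, each with a two-sided exact permutation p of 0.1, the smallest that 3 against 3 allows (adjusted p = 0.4 over 16 shares). Shares within a family are tied, because a higher share of any gene lowers those of the others, so the 3 are not separate results. The FPKM of Spag4 itself was higher in every knockout RNA-seq library than in any control, as given above. Sun1 (12.2% and 11.6%) and Sun3 (11.9% and 12.2%) overlapped. On polysomes the share of Spag4 was 42.6% ± 6.54 and 47.3% ± 4.79 and that of Sun3 19% ± 4.5 and 13.9%, with overlap in every SUN gene. Lmnb2 held 92.9% and 93.3% of the lamin FPKM in RNA-seq and 93.9% and 94.5% in RNC-seq, so that A-type lamins, at 5.55% and 5.43% in RNA-seq, and Lmnb1, at 1.54% and 1.24%, made up the small remainder. The Lmnb1 shares did not overlap in RNA-seq (exact permutation p = 0.1).

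**Figure D4:**
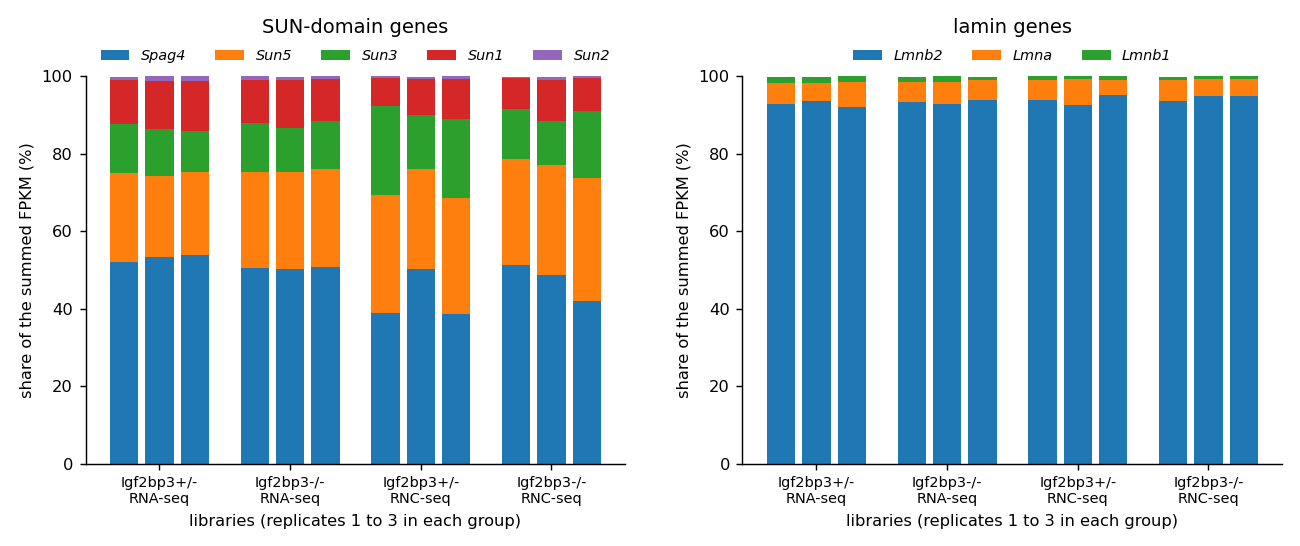
Share of the summed FPKM (%) taken by each SUN-domain gene (left) and each lamin gene (right), with 1 stacked bar per library and 3 per group. Spag4 and Sun5 take most of the SUN-domain FPKM in every library, and Lmnb2 takes over 90% of the lamin FPKM throughout.

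The wider nuclear envelope was read from 38 partner genes in 4 lists, of which 37 were found and 35 passed the filter; Sept12 was not analysed here. Between genotypes 0 of 35 passed the adjusted limit in RNA-seq, in RNC-seq or in TE (limma), and an unadjusted p under 0.05 was reached by 3 higher and 2 lower partners in RNA-seq, 3 and 0 in RNC-seq and 2 and 0 in TE. Among all genes the shares with higher and lower values at that limit were 10.4% and 5.32% in RNA-seq, 5.36% and 1.12% in RNC-seq and 5.54% and 1.58% in TE, and the partners' counts were near them. By the smallest p, the genes to name in RNA-seq were Spata46, a protein of the subacrosomal nuclear envelope, and Cntln, the centriolar linker protein centlein. Spata46 read 190, 192 and 150 FPKM in the controls and 252, 260 and 287 in the knockouts, without overlap (log2 difference 0.59 ± 0.11, adjusted p = 0.122, limma), and with median centring it passed (adjusted p = 0.0352, limma). Cntln read 2.90, 2.96 and 3.14 against 2.38, 2.1 and 2.00 (-0.46 ± 0.14, adjusted p = 0.207, limma). In RNC-seq they were Ccdc42, a head-tail coupling protein, with 52.7, 52.2 and 63.7 against 124, 81.1 and 67.2 FPKM (0.65, adjusted p = 0.736, limma), and Odf1 of the outer dense fibres, with 36.2, 36.6 and 51.7 against 69.7, 55.0 and 56.6 (0.55, adjusted p = 0.744, limma). In TE they were Odf1 (ratio 0.547 and 0.917) and the KASH gene Syne3 (0.484 and 0.899), both with an adjusted p of 0.686 (limma). Syne3 read 1.05, 2.00 and 2.39 FPKM on control polysomes and 2.84, 2.92 and 2.91 on knockout polysomes, without overlap, while its RNA-seq values overlapped.

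Polysome loading differed widely among these partners. In Igf2bp3+/- 8 of 35 passed the adjusted limit as higher in RNC-seq and 14 as lower. In Igf2bp3-/- 5 passed as higher and 8 as lower, against the shares of all genes given above. The counts by list that follow are also of genes past the limit. The 11 spermatid nuclear envelope and head-tail coupling genes held 3 higher and 7 lower ones in the controls and 2 higher and 6 lower in the knockouts. The 17 genes of the inner membrane and lamin binding held 4 higher and 5 lower, then 3 and 1. The 5 lamin-processing genes held 1 higher and 1 lower, then 0 and 1, and of the 2 tested other KASH genes 1 was lower in the controls. Median centring gave 10 higher and 11 lower partners past the limit in Igf2bp3+/-, and rescaling without CT010467.1 gave 5 and 16. Without replicate 3 of that genotype there were 14 partners past the limit.

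The partners with the smallest p in Igf2bp3+/- included both lower and higher genes, also within the list of spermatid envelope and head-tail coupling genes. Hook1, a manchette linker protein, went from 101, 100 and 97.6 FPKM in control RNA-seq to 45.7, 34.5 and 48.7 on polysomes (log2 change -1.23, adjusted p = 0.000336, limma). Spata6, needed for the sperm neck, had -0.89, Tsga10 had -0.72 and Cntln had -1.8. The polysomal libraries were below all RNA-seq libraries in each, and the share of all genes with such a gap was not computed. On the other side, Fam209, an envelope partner of DPY19L2, went from 268, 223 and 183 to 597, 426 and 444 FPKM (1.12, adjusted p = 0.00135, limma). Spata46 had 1.08, the chromatin-bridging Banf1 0.86 and the inner membrane gene Nemp1 0.90. Exons of Banf1 overlap Eif1ad on the other strand over 28.6% of their bases, and those of Hook1, Nemp1 and Tsga10 overlap other genes over 3.81%, 2.62% and 1.95%. In Igf2bp3-/- the log2 change was 1.14 for Fam209, 0.89 for Spata46, 0.86 for Banf1, 0.91 for Banf2, -1.01 for Hook1, -0.73 for Spata6, -0.91 for Tsga10 and -1.09 for Cntln, each past the limit. Without replicate 1 or without replicate 3 of that genotype 0 partners passed, and all genes together had 3 and 1 calls.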

How the data were processed

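The authors deposited a table of FPKM per gene symbol. Per the study's methods and the submitters' notes, reads were trimmed with Trim Galore 0.6.6, HISAT2 placed them on GRCm38 and StringTie 2.1.7 gave the FPKM, and the authors divided RNC-seq by RNA-seq FPKM for TE. The labels and the methods describe different library kits and instruments. Read depth is not in the table, so precision comes from the spread between replicates, with variances that limma moderated across all genes. Of 28668 symbols, 25 turned into dates by spreadsheet software were left out (0.0995% of the summed FPKM).

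Here, log2(FPKM + 0.1) was fitted with limma 3.58.1 (R 4.3.3, variance trend, two-sided) across all genes with a mean FPKM above 0.1, in each assay for RNC-seq against RNA-seq and TE, and p-values were adjusted after Benjamini and Hochberg (limit 0.05). Fold changes on this scale understate those of low genes. The fit was tested on simulated data. The methods' count test was replaced because the table holds FPKM. The labels number the 3 libraries of a group as replicates, and the paper describes them as biological replicates. Alternatives were no filter, a mean FPKM above 1, pseudocounts of 1 and 0.01, median centring, quantile normalization, rescaling without CT010467.1, library weights, a replicate block, a fit over all 12 libraries and leaving out each replicate. All 10 members were named, and of the partners at most 8 per comparison past the limit with the smallest p, or the 2 with the smallest p where fewer than 2 passed. Outside that rule, Ccdc155 and Syne3 were given beside the KASH members in RNA-seq. Marker lists covered Leydig, Sertoli, peritubular, macrophage, blood and endothelial, spermatogonial, spermatocyte and spermatid genes. Near-identical copies were sought with BLAST 2.17.0 (95% identity over 50% of the transcript). Members and lists were chosen with earlier results of these data known.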

Additional observations from a re-analysis of the deposited data

How the results depend on the processing

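Over 650 alternative values for the members, 609 kept their direction and their side of the limit, 8 lost the adjusted limit, 7 gained it and 26 changed sign. The 8 losses and 7 gains were all in polysome loading. In the genotype comparisons no member passed in the main fit, so none could lose the limit there, and the pooled count says little about the calls. At an unadjusted p under 0.05 the counts were 3, 3 and 1 for the members and 5, 3 and 2 for the partners in RNA-seq, RNC-seq and TE, and median centring gave 1 partner in RNA-seq. In RNC-seq against RNA-seq, leaving out 1 replicate gave 2 to 6 members and 14 to 16 partners in Igf2bp3+/-, and 0 to 2 members and 0 to 11 partners in Igf2bp3-/-; a minimum mean FPKM of 1 gave 0 members in Igf2bp3-/-, because Syne2 was then not tested. The changes of sign were these. In RNA-seq Spag4 came to -0.0233 with quantile normalization and Lmnb1 to 0.00840 with library weights. In TE Sun5 came to -0.12 with median centring and -0.0541 with quantile normalization. In polysome loading Lmnb2 of Igf2bp3+/- came to 0.0226 with median centring, and in Igf2bp3-/- Lmnb2 came to -0.13 with quantile normalization and -0.12 after rescaling without CT010467.1, and Sun3 to -0.0139 after that rescaling; the cause was not tested. With 1 replicate left out, log2 values ran from -0.0668 to 0.0479 for Lmnb1 in RNA-seq; in RNC-seq from -0.0860 to 0.65 for Sun2, -0.25 to 0.13 for Sun3 and -0.18 to 0.45 for Lmnb1; in TE from -0.12 to 0.17 for Sun5, -0.17 to 0.59 for Lmna and -0.17 to 0.45 for Lmnb1; in loading of Igf2bp3+/- from -0.69 to 0.0304 for Lmna and -0.26 to 0.00962 for Lmnb2; and in loading of Igf2bp3-/- from -0.29 to 0.23 for Spag4, -0.44 to 0.22 for Lmna and -0.13 to 0.41 for Lmnb2. The replicate numbers were not taken as pairs. The methods draw the input and the polysomes from a shared extract, but the labels do not tie the numbers. Same-numbered libraries of the 2 assays of a genotype correlated in their deviations between -0.104 and 0.205, with 4 of 6 above 0.1. Differently numbered ones did so between -0.306 and 0.175. Across the genotypes within an assay, same-numbered libraries correlated between -0.083 and 0.241 and differently numbered ones between -0.442 and 0.525. With the replicate number as a block the members past the limit numbered 0 in RNA-seq, RNC-seq and TE, 5 in Igf2bp3+/- loading and 1 in Igf2bp3-/- loading, and the partners 0, 0, 0, 21 and 10; the calls over all genes went from 52 to 4 in RNA-seq, 22 to 31 in RNC-seq and 1 to 0 in TE.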

Other observations

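Of the marker lists not given above, the summed FPKM of 6 peritubular markers was 123 to 141 in Igf2bp3+/- RNA-seq and 144 to 164 in Igf2bp3-/- RNA-seq. Nearly all of it was Actg2, with a mean of 128 and 151 FPKM, and of the 5 genes tested 2 had a log2 difference above 0 while Tagln (-1.71), Cnn1 (-0.39) and Myh11 (-0.30) were below it, with 0 past the limit. The 4 blood and endothelial markers found summed to 6.16 to 6.67 and 10.5 to 12.4 FPKM. The haemoglobin genes Hbb-bs and Hba-a1 had log2 differences of 1.23 and 0.79, with Hbb-bs past the limit, whereas the endothelial gene Vwf had -0.48 and Pecam1 had means of 0.105 and 0.0820 FPKM and was not tested. The 6 spermatocyte markers summed to 81.5 to 104 and 95.5 to 121, and the 6 spermatogonial markers to 6.44 to 9.22 and 6.72 to 8.34.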
